A study of Mus musculus with 4 samples.

Results

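The chemokine genes of isolated mouse islets are described here, taken from the count table by symbol: ligands named Cxcl, Ccl, Cx3cl1 or Xcl1, receptors named Cxcr or Ccr, and the atypical receptors Ackr1 to Ackr4. The pattern found 65 of the 55536 genes in the table, 45 ligands and 20 receptors, of which 4 were atypical. They carry 60 different symbols, because 7 entries lie on unplaced scaffolds and carry the symbols Ccl19, Ccl21a, Ccl21b, Ccl21c or Ccl27. The study sequenced polyadenylated RNA of islets, which hold the endocrine cells of the pancreas, from male C57BL/6 mice aged 8 weeks. The insulin-depleted group, 2 libraries, had insulin sequences removed during library preparation with a commercial depletion panel, and the non-depleted group, 2 libraries, did not. No other treatment or allele is named for either group. Islets were freed with collagenase. A dissociation step is described in the same protocol without a statement of whether the bulk RNA went through it, and no culture time is given.

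Chemokines are small secreted proteins that attract leukocytes by binding G-protein-coupled receptors. They are named by the spacing of their first cysteines, and CXC ligands with a Glu-Leu-Arg motif, such as Cxcl1, Cxcl2, Cxcl3 and Cxcl5, attract neutrophils through Cxcr2. Atypical receptors bind chemokines and take them up without classical G-protein signalling. Many ligand genes respond quickly to cytokines through NF-kB, and isolated islets are known to transcribe Ccl2 and Cxcl10 under inflammatory stimuli.

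The libraries fitted their labels. Ins1 and Ins2 together took 0.195 and 0.264% of counts in insulin-depleted replicates 1 and 2, against 4.14 and 3.97% in non-depleted replicates 1 and 2 (exact Clopper-Pearson 95% intervals 0.193 to 0.197 and 0.263 to 0.265%, against 4.13 to 4.14 and 3.96 to 3.97%, counting error only). The log2 fold changes of Ins1 and Ins2 were -6.52 (SE 0.19, edgeR quasi-likelihood test, adjusted p = 0.00236) and -3.87 (SE 0.17, adjusted p = 0.0114). Depth was 19316173 and 65030111 counts in insulin-depleted replicates 1 and 2, against 50605417 and 60528485 in non-depleted replicates 1 and 2. Levels below are CPM, the usual depth-scaled counts, with each library's total taken without Ins1 and Ins2. The 8 beta-cell markers summed to 18675 to 19496 CPM in insulin-depleted and 18527 to 19812 CPM in non-depleted libraries, led by Iapp. The labels call the 2 libraries of a group biological replicates, but all column names carry the same pair of codes, so separate animals are not established and the p-values describe only how far these libraries scatter. The column names of the non-depleted libraries also carry a size selection tag that the others lack, so a difference in size selection cannot be told apart from depletion.

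A small part of the family carried most of the signal. Of the 65 genes, 27 had a mean of at least 1 CPM over the 4 libraries, 20 ligands and 7 receptors, a further 19 had some counts below that level, and 19 had none in any library. The 19 without counts include the 7 entries on unplaced scaffolds. They also include Ccl19, Ccl21a, Ccl21b and Ccl27b of chromosome 4, which share sequence with other genes, so their reads may have been left uncounted. Summed over all ligands, the level was 561.6 and 456.2 CPM in insulin-depleted replicates 1 and 2, against 580.7 and 456.8 CPM in non-depleted replicates 1 and 2. Summed over all receptors it was 80.1 and 97.4 CPM in the insulin-depleted replicates, against 74.7 and 98.2 CPM in the non-depleted ones. Ligand sums were thus highest in both libraries numbered 1, and receptor sums in both libraries numbered 2. In bulk RNA, a difference in the number of cells of a type and a difference in RNA per cell cannot be told apart.

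**Figure D1:**
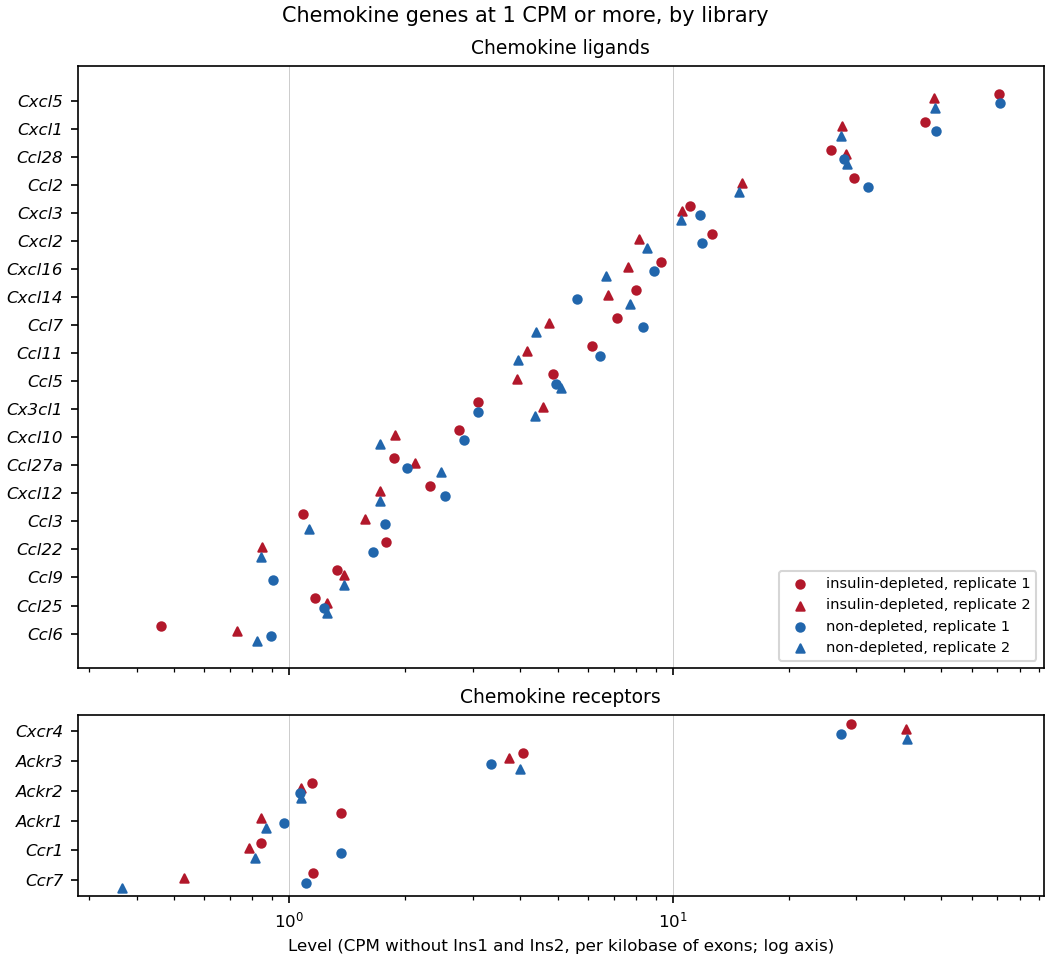
Level of 26 of the 27 chemokine genes that averaged 1 CPM or more, as CPM per kilobase of exons on a log axis, ordered by the mean; each point is a library, red for insulin-depleted and blue for non-depleted, circles for replicate 1 and triangles for replicate 2. Cxcl5, Cxcl1, Ccl28 and Ccl2 lead the ligands and Cxcr4 the receptors, and for Cxcl5, Cxcl1, Ccl2 and Cxcr4 points of the same shape lie closer together than points of the same colour.

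The neutrophil-attracting ligands led the family. To compare genes, levels were divided by exon length, and on this scale Cxcl5 ranked 1 of 45 ligands (59.5 CPM per kilobase, mean of 4 libraries), Cxcl1 ranked 2 (37.2), Cxcl3 ranked 5 (10.96) and Cxcl2 ranked 6 (10.3). Among all 55536 genes, Cxcl5 ranked 624 by this measure. The 4 genes lie in a single stretch of chromosome 5 (GRCm38, 90759360 to 90905938), on the plus strand. Of the genes of the symbol pattern, only Cxcl15, which had no counts, lies between them, and genes outside the pattern were not placed.

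Cxcl5 (ENSMUSG00000029371), a ligand of Cxcr2 also made by epithelial cells, had 132 and 89.4 CPM in insulin-depleted replicates 1 and 2, against 132 and 89.9 CPM in non-depleted replicates 1 and 2. Cxcl1 (ENSMUSG00000029380), a rapidly induced Cxcr2 ligand, had 84.8 and 51.7 CPM in the insulin-depleted replicates, against 91.0 and 51.2 CPM in the non-depleted ones. For both genes the libraries numbered 1 were the higher in each group, and the groups overlapped. Cxcl2 (ENSMUSG00000058427), a Cxcr2 ligand known from macrophages, had 26.0 and 16.9 CPM in the insulin-depleted replicates, against 24.6 and 17.7 CPM in the non-depleted ones. Cxcl3 (ENSMUSG00000029379), the remaining member of this group, stayed level, with 38.6 and 37.0 CPM in the insulin-depleted replicates, against 41.0 and 36.8 CPM in the non-depleted ones. Together the 4 genes made up 50.1 and 42.7% of the summed ligand CPM in insulin-depleted replicates 1 and 2, against 49.8 and 42.8% in non-depleted replicates 1 and 2. Of their 31-base stretches, 7.59% of those of Cxcl2 and 5.46% of those of Cxcl3 occur in another gene, mainly in each other, so a few of their reads are uncertain. The leading pair shares less: 0.871% for Cxcl5 and 0% for Cxcl1.

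The stretch before the transcription start of Cxcl1, Cxcl2 and Cxcl3 is printed because these 3 genes hold the same 11-letter element there. Those of Cxcl10 and Ccl28 follow for contrast. Each is the 200 bases before the RefSeq start, 5′ to 3′ in the direction of transcription, from the RefSeq table for GRCm38.p6; capitals mark matches, on either strand, to an NF-kB-type pattern (GGG, any 3 bases, TTCC), an interferon-response-type pattern (GAAA, any 2 bases, GAAA) or TATAAA.
Cxcl1, chr5:90891045-90891244, plus strand: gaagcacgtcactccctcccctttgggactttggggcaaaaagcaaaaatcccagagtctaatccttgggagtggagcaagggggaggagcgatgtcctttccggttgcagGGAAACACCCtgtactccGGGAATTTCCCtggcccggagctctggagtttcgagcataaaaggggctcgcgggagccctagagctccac
Cxcl2, chr5:90903699-90903898, plus strand: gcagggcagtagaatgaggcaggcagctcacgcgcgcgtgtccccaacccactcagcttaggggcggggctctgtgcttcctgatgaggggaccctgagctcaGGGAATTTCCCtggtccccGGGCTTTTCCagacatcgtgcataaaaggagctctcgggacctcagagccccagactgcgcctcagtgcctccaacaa
Cxcl3, chr5:90785901-90786100, plus strand: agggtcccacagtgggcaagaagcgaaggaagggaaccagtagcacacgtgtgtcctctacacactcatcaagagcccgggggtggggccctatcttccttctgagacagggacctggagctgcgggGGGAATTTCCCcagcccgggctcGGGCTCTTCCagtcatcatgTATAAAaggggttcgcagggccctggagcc
Cxcl10, chr5:92348890-92349089, minus strand: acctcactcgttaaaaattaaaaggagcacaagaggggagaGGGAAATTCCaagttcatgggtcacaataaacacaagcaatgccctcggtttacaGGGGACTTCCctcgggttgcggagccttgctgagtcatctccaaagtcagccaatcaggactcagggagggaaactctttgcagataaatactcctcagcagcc
Ccl28, chr13:119623619-119623818, plus strand: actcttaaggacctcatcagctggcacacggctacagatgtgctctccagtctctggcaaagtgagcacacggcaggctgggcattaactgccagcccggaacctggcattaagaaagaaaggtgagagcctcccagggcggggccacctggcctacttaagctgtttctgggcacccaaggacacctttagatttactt

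In Cxcl1, Cxcl2 and Cxcl3 the element GGGAATTTCCC begins 71, 97 and 73 bases before the start. It reads as a match on both strands, so its overlapping matches are a single place. Each of the 3 windows holds a further match to the NF-kB-type pattern, which begins 89, 78 and 50 bases before the start. Over the 250 bases before the start, the NF-kB-type pattern occurred in 4.65% of all 32851 promoters of the table, in 5 of 19 matched chemokine genes at 1 CPM or more (Cxcl1, Cxcl2, Cxcl3, Cxcl10 and Ccl9), and in 4 of 24 matched genes below that level (Ccl1, Ccl20, Ccr3 and Ccr6). The interferon-response-type pattern occurred in 2.98% of all promoters and in 2 of those 19 genes, Cxcl10, at 213 bases before the start and thus outside the printed stretch, and Cxcl14. TATAAA occurred in 12.4% of all promoters and in 6 of the 19. Of the 58 chemokine symbols on chromosomes, 43 matched the table, with 50 promoters, and Cxcl5 and Ccl2 are named only. A chemokine gene was counted if any of its promoters held the pattern, while the percentages are of single promoters, so the 2 are not directly comparable. These are matches of letters, not measured binding.

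Ccl28 was the most abundant ligand by mean CPM. Ccl28 (ENSMUSG00000074715, chromosome 13, 119623819 to 119654359, plus strand, GRCm38), a ligand of Ccr10 and Ccr3 that mucosal epithelia secrete, had 125 and 136 CPM in insulin-depleted replicates 1 and 2, against 135 and 138 CPM in non-depleted replicates 1 and 2. Per kilobase it ranked 3 of the ligands, with 27.5 CPM per kilobase. The insulin-depleted libraries averaged 131 ± 8.18 CPM and the non-depleted libraries 136 ± 1.86 CPM (SD, n = 2 each). Between groups the log2 fold change of Ccl28 was -0.07 (SE 0.08), with a 95% interval from -0.26 to 0.13, the narrowest among the 27 genes. Ccl28 alone made up 22.2 and 29.9% of the summed ligand CPM in the insulin-depleted replicates, against 23.2 and 30.1% in the non-depleted ones.

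Monocyte- and eosinophil-attracting ligands of chromosome 11 spanned a wide range, with Ccl2 ranked 4 of the ligands per kilobase, Ccl7 ranked 9 and Ccl11 ranked 10. Ccl2 (ENSMUSG00000035385), which attracts monocytes through Ccr2, had 33.7 and 17.2 CPM in insulin-depleted replicates 1 and 2, against 36.7 and 16.9 CPM in non-depleted replicates 1 and 2. Its neighbour Ccl7, a ligand of the same receptor, had 5.71 and 3.81 CPM in the insulin-depleted replicates, against 6.68 and 3.51 CPM in the non-depleted ones. Ccl11, the eosinophil attractant eotaxin, had 6.64 and 4.50 CPM in the insulin-depleted replicates, against 6.97 and 4.27 CPM in the non-depleted ones. In all 3 genes the libraries numbered 1 were the higher, by 1.96- and 2.17-fold for Ccl2 in the insulin-depleted and non-depleted groups. Further along the same 270 kb stretch (82035571 to 82305690, GRCm38) the signal dropped: Ccl8 had 24 counts over the 4 libraries, Ccl12 had 4 and Ccl1 had 0.

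A second row of genes on chromosome 11 (83525778 to 83664683, GRCm38) was lower. Ccl5, a T-cell and monocyte attractant, had 4.67 and 3.76 CPM in the insulin-depleted replicates, against 4.74 and 4.90 CPM in the non-depleted ones. Ccl9 had 4.05 and 4.22 CPM in the insulin-depleted replicates, against 2.76 and 4.23 CPM in the non-depleted ones. Ccl6, like Ccl9 a myeloid chemokine of rodents, had 0.830 and 1.31 CPM in the insulin-depleted replicates, against 1.61 and 1.48 CPM in the non-depleted ones. Ccl3, a macrophage inflammatory protein, had 0.830 and 1.20 CPM against 1.36 and 0.860 CPM in the same order. Ccl4, a relative of Ccl3, had 0.519 and 0.463 CPM in the insulin-depleted replicates, against 0.330 and 0.378 CPM in the non-depleted ones. Ccl5 and Ccl6 were lower in both insulin-depleted libraries, as were 7.87% of all genes at 1 CPM or more, Ccl4 was higher in both, from 10 to 30 counts a library, and the groups overlapped for Ccl9 and Ccl3.

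**Figure D2:**
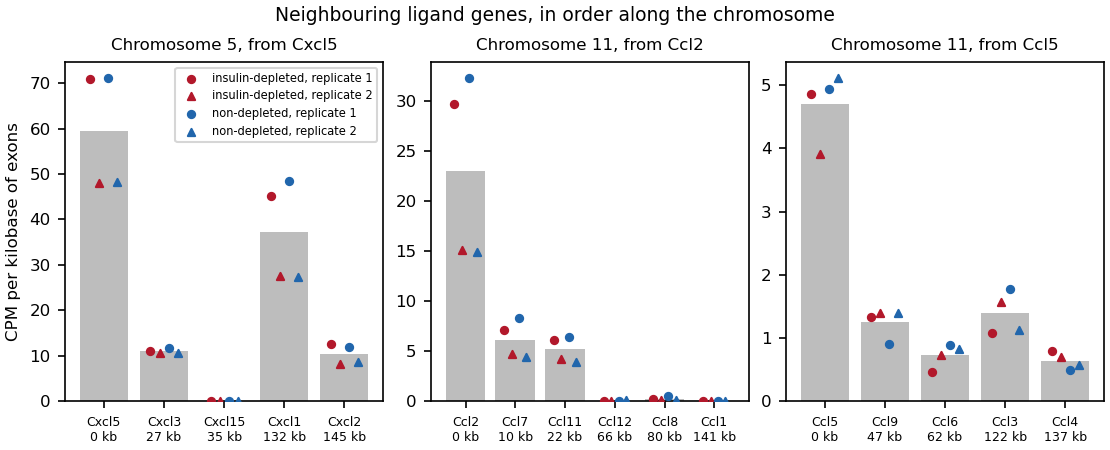
Mean level of ligand genes of the symbol pattern (grey bars, CPM per kilobase of exons, mean of 4 libraries) in order along chromosomes 5 and 11. Genes outside the pattern are not drawn. The distance of each gene's start from the first gene, in kb, stands under its name. Points are libraries, red for insulin-depleted and blue for non-depleted. Within the chromosome 5 row the means run from 0 for Cxcl15 to 59.5 for Cxcl5, and in the row that starts with Ccl2 the 3 first genes carry nearly all of the signal.

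Membrane-bound, homeostatic and interferon-type ligands that averaged 1 CPM or more ranked from 7 (Cxcl16) to 19 (Ccl25) per kilobase. With the longest transcript as length, Ccl25 ranked 14. Cxcl16, a transmembrane ligand of Cxcr6, had 28.2 and 23.1 CPM in the insulin-depleted replicates, against 27.0 and 20.2 CPM in the non-depleted ones; 18.3% of its exon length overlaps Zmynd15 on the other strand, so its reads are uncertain without known strand use. Cx3cl1 (fractalkine), a transmembrane ligand of Cx3cr1, had 12.2 and 18.01 CPM in the insulin-depleted replicates, against 12.2 and 17.2 CPM in the non-depleted ones. It was higher in both libraries numbered 2. Cxcl12, the stromal ligand of Cxcr4 and Ackr3, had 18.98 and 14.1 CPM in the insulin-depleted replicates, against 20.8 and 14.0 CPM in the non-depleted ones. Cxcl14, a ligand of epithelia, had 14.6 and 12.4 CPM against 10.2 and 14.1 CPM in the same order, so its replicates differed in opposite directions in the 2 groups.

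Cxcl10, an interferon-induced ligand of Cxcr3, had 6.22 and 4.26 CPM in the insulin-depleted replicates, against 6.43 and 3.89 CPM in the non-depleted ones. The other interferon-induced ligands were near the counting limit: Cxcl9 had 2 counts in non-depleted replicate 1 and none elsewhere, and Cxcl11, annotated as a polymorphic pseudogene, had 2 to 5 counts a library, 41.7% of its exons overlapping another gene. Ccl22, a ligand of Ccr4 known from dendritic cells and macrophages, had 4.15 and 1.97 CPM in the insulin-depleted replicates, against 3.83 and 1.96 CPM in the non-depleted ones, another gene higher in both libraries numbered 1. Its partner Ccl17 had 0 and 2 counts in the insulin-depleted replicates, against 14 and 8 in the non-depleted ones, too few to pass the count filter. Ccl25, a ligand of Ccr9, stayed between 8.66 and 9.34 CPM in all 4 libraries. Ccl27a, a Ccr10 ligand, lay between 4.46 and 5.92 CPM, but 57.0% of its 31-base stretches occur in other genes, among them copies on chromosome 4. Ccl19, Ccl21a, Ccl21b and Ccl27b of that region share 58.8 to 100% and had 0 counts, which cannot be told apart from reads left uncounted for mapping to several places.

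Receptor transcripts were dominated by Cxcr4. Cxcr4 (ENSMUSG00000045382, chromosome 1, 128588199 to 128592293, minus strand, GRCm38), the receptor of Cxcl12 on leukocytes, progenitors and endothelium, had 52.7 and 73.1 CPM in insulin-depleted replicates 1 and 2, against 49.5 and 73.8 CPM in non-depleted replicates 1 and 2. It was higher in both libraries numbered 2, and the groups overlapped. Cxcr4 made up 65.8 and 75.1% of the summed receptor CPM in the insulin-depleted replicates, against 66.3 and 75.1% in the non-depleted ones. Per kilobase, Cxcr4 stood at 34.4 CPM, the next receptor, Ackr3, at 3.78 CPM and the others at 1.09 CPM or less. Its log2 fold change was 0.03 (SE 0.23), with a 95% interval from -0.53 to 0.59.

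The atypical receptors followed. Ackr3, which scavenges Cxcl12, had 13.6 and 12.5 CPM in the insulin-depleted replicates, against 11.2 and 13.4 CPM in the non-depleted ones. Ackr2, a scavenger of inflammatory CC ligands, had 3.58 and 3.36 CPM in the insulin-depleted replicates, against 3.34 and 3.35 CPM in the non-depleted ones. Ackr1, the Duffy receptor of venular endothelium and red cells, had 1.92 and 1.19 CPM against 1.36 and 1.22 CPM in the same order, and 25.7% of its exon length overlaps Cadm3. Ackr4, which takes up Ccl19, Ccl21 and Ccl25, had 2 to 14 counts a library. The value of Ackr1 in insulin-depleted replicate 1, the highest of its 4, rests on 37 counts.

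The leukocyte receptors were low. Ccr1, a receptor of Ccl3 and Ccl5, had 2.39 and 2.22 CPM in the insulin-depleted replicates, against 3.85 and 2.31 CPM in the non-depleted ones. Ccr7, which guides dendritic cells and T cells to lymph nodes, had 2.28 and 1.05 CPM in the insulin-depleted replicates, against 2.19 and 0.723 CPM in the non-depleted ones. It was higher in both libraries numbered 1, by 2.18- and 3.02-fold in the insulin-depleted and non-depleted groups. Per kilobase, neighbours in the order from Ackr2 to Ccr7 had values that overlapped between libraries.

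**Figure D3:**
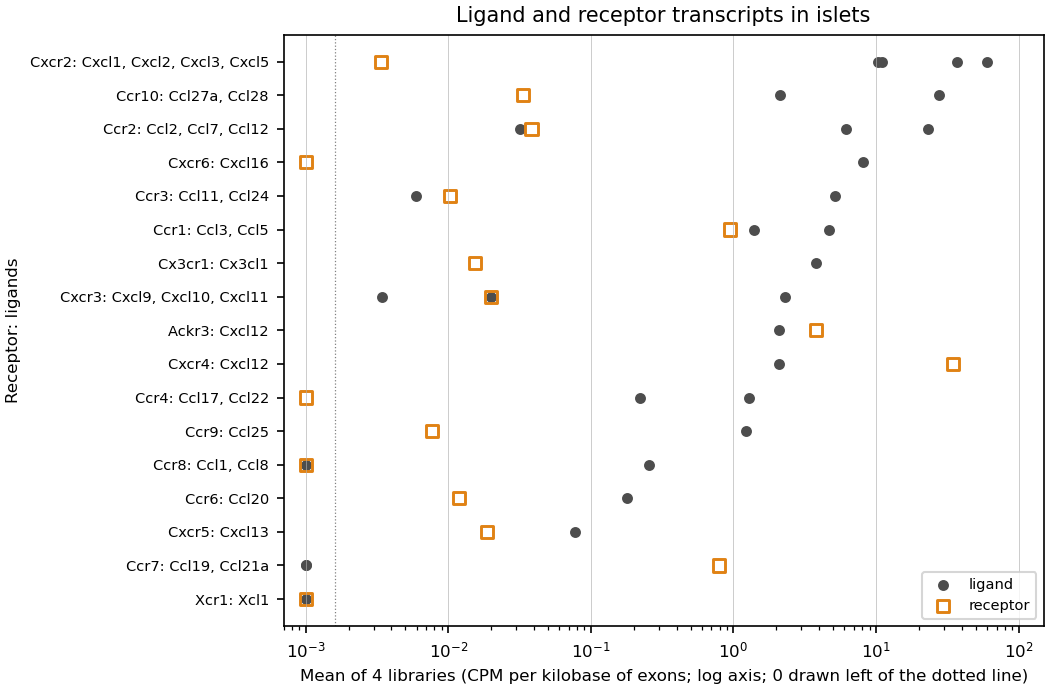
Transcript levels of 17 chemokine receptors (open squares) and their ligands (filled circles), as means of 4 libraries in CPM per kilobase of exons on a log axis; values of 0 are drawn left of the dotted line and the pairs are textbook pairings. For Cxcr2 the 4 ligands lie at 10.3 to 59.5 and the receptor at 0.00338, while for Cxcr4 and Ackr3 the receptor lies above its ligand Cxcl12.

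Many receptors lay under 1 CPM although a ligand did not. The tally covers a chosen list of 33 textbook pairs with 18 receptors and leaves out Ackr1, Ackr2 and Ackr4, which bind many ligands. Of these 18, 9 lay under 1 CPM although a ligand reached 1 CPM, 4 reached 1 CPM together with a ligand, 4 lay under 1 CPM with their ligands, and Ccr7 alone reached it without a ligand. The listed ligands of Ccr7 are Ccl19 and Ccl21a. Their 0 counts cannot be told apart from reads left uncounted for mapping to several places, so a missing ligand is not established. Cxcr2, the receptor of the leading ligands, had 2 counts in non-depleted replicate 1 and none in the other 3 libraries. A count of 0 allows up to 3 counts, if counts arise singly, which is 0.156 and 0.0463 CPM in insulin-depleted replicates 1 and 2, against 0.0618 and 0.0516 CPM in non-depleted replicates 1 and 2. Low counts were mostly even (80.01 to 84.01% of counts of 2 to 9), so these limits may be too low. Ccr10, the receptor of Ccl28, had 2 and 3 counts in the insulin-depleted replicates, against 4 and 0 in the non-depleted ones. Ccr2, the receptor of Ccl2 and Ccl7, had 8 and 14 counts in the insulin-depleted replicates, against 18 and 2 in the non-depleted ones. Cxcr6 and Ccr4, the receptors of Cxcl16 and Ccl22, were at 0 in all libraries. Pairs with both ends at 1 CPM or more included Cxcl12 with Cxcr4 and Ackr3, and Ccl5 and Ccl3 with Ccr1.

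Markers of neutrophils and of T and NK cells, blood cells known to carry such receptors, were low. Neutrophil markers (6 genes) summed to 1.04 and 0.247 CPM in insulin-depleted replicates 1 and 2, against 0.928 and 0.516 CPM in non-depleted replicates 1 and 2, with Ly6g and Retnlg at 0. T- and NK-cell markers (8 genes) summed to 0.830 and 0.339 CPM in the insulin-depleted replicates, against 0.0206 and 0.275 CPM in the non-depleted ones, with Cd3e and Nkg7 at 0. Macrophage markers (10 genes) summed to 60.2 and 70.4 CPM in the insulin-depleted replicates, against 65.8 and 73.1 CPM in the non-depleted ones. Cd68 led them with a mean of 27.3 CPM over the 4 libraries, and Aif1 was lowest with 0.716 CPM. B-cell markers (8 genes) summed to 3.13 to 4.56 CPM, most of it from Cd79a with 74 to 154 counts a library and with Cr2 at 0. Dendritic-cell markers summed to 7.02 to 9.50 CPM over the 4 libraries. Most of this came from Zbtb46, with a mean of 5.15 CPM, and Cd209a and Xcr1 were at 0.

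The design asks whether insulin depletion changed other transcripts, and no chemokine gene passed the test. In the edgeR quasi-likelihood test over 19723 genes, 2 genes (0.0101%) were called, both insulin genes, and 0 of the 30 chemokine genes that passed the count filter, among them 27 at 1 CPM or more, with 0 at an unadjusted p under 0.05, where 0.416% of all genes tested stood. DESeq2 and limma-voom also called 0 of the 30, with 0 at an unadjusted p under 0.05. In the edgeR test with the replicate number as a block, 853 of the 19723 genes had an unadjusted p under 0.05. Of the 30 chemokine genes 0 did, and of 65 tested genes of the related lists described below 6 did. In the fit on group alone low p-values were thus rare for any gene, so its 0 of 30 says little. The smallest adjusted p among chemokine genes was 1.00. The log2 fold changes of the 27 were positive for 13 and negative for 14; their median was -0.01, beside a median of -0.0031 over 14797 genes at 1 CPM or more.

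The widest values came from low genes. The lowest log2 fold change of the 27 was that of Ccl6, -0.49 (SE 0.34, 95% interval -1.33 to 0.35), followed by Ccr1 with -0.43 (SE 0.33, interval -1.25 to 0.39), and the highest were those of Ccl9, 0.24 (SE 0.27, interval -0.42 to 0.90), and Ackr1, 0.23 (SE 0.36, interval -0.67 to 1.12). The leading ligands lay close to 0, with -0.01 for Cxcl5 (SE 0.26, interval -0.66 to 0.63), -0.07 for Cxcl1 (SE 0.36, interval -0.99 to 0.85) and -0.10 for Ccl2 (SE 0.48, interval -1.34 to 1.15). For most members the intervals still allow a change of some size, since their median half-width was 0.65 on the log2 scale, beside 0.35 for all genes at 1 CPM or more. This fit uses the group alone, so the differences between replicates described below widen these intervals. The groups did not overlap for 3 of the 27: Ackr2 was higher in both insulin-depleted libraries, as were 8.35% of all genes at that level, and Ccl5 and Ccl6 were lower in both, as were 7.87%.

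**Figure D4:**
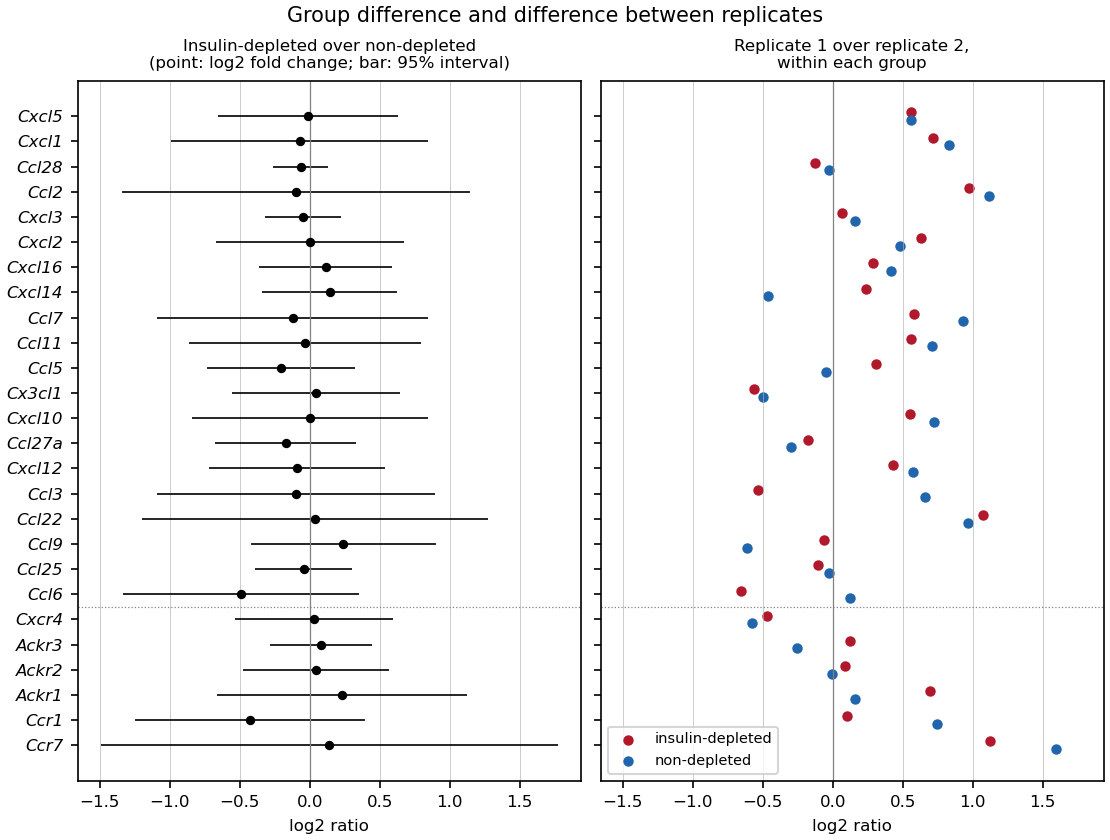
Log2 ratios of 26 of the 27 chemokine genes at 1 CPM or more, ligands above the dotted line and receptors below it. Left, insulin-depleted over non-depleted with 95% intervals from edgeR; right, replicate 1 over replicate 2 within the insulin-depleted (red) and the non-depleted group (blue). All intervals on the left include 0, while on the right Ccl2, Ccl22 and Ccr7 lie near or above 1 in both groups.

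Replicates of a group differed more than the groups did, for most of the 27 genes and in the median over all genes. The median absolute log2 ratio between replicates of the 27 genes was 0.47 in the insulin-depleted and 0.50 in the non-depleted group, beside 0.18 and 0.16 for all genes at 1 CPM or more, and their median absolute log2 fold change between groups was 0.09, beside 0.05. In 19 of the 27, the replicates of each group differed by more than the group means did. That share was not computed for all genes, whose medians were also wider between replicates than between groups. Replicates were more than 1.5-fold apart for 7 of the 27 in the insulin-depleted group, beside 10.5% of all genes at that level, and for 10 in the non-depleted group, beside 7.49%. Cxcl1, Ccl2, Ccl22 and Ccr7 were more than 1.5-fold higher in replicate 1 in both groups, as were 2.24% of all genes at that level. None of the 27 was more than 1.5-fold higher in replicate 2 in both groups, beside 2.08% of all genes. Cx3cl1 and Cxcr4 came closest, at 1.48- and 1.39-fold higher in insulin-depleted replicate 2, and 1.41- and 1.49-fold in non-depleted replicate 2. At 10 CPM or more, which holds 12 chemokine genes, the median absolute ratios between replicates were 0.45 and 0.49, beside 0.14 and 0.13 for all genes at that level.

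Markers of exocrine tissue differed between the same libraries. The 14 acinar markers, digestive enzymes and their regulators from the tissue around islets, summed to 15162 and 6315 CPM in insulin-depleted replicates 1 and 2, against 15186 and 6300 CPM in non-depleted replicates 1 and 2, with none of them at 0 in all libraries. Ductal markers (8 genes) stood at 1648 and 1512 CPM against 1651 and 1524 CPM in the same order. Endothelial markers (10 genes) stood at 1039 and 1121 CPM in the insulin-depleted replicates, against 1030 and 1128 CPM in the non-depleted ones, and stellate and fibroblast markers (10 genes) at 295 and 285 CPM, against 298 and 285 CPM. Delta-cell markers (4 genes) stood at 620 and 749 CPM in the insulin-depleted replicates, against 617 and 756 CPM in the non-depleted ones. Acinar sums, like Cxcl1 and Ccl2, were higher in the libraries numbered 1, and delta-cell, endothelial and macrophage sums, like Cxcr4, in those numbered 2. Single markers went against the sum of their list in both groups: Bhlha15 (acinar), Hhex (delta-cell), Emcn (endothelial) and Itgam (macrophage). Lyz2, Aif1 and Csf1r of the macrophage list did so in the insulin-depleted group, and Rbp4 of the delta-cell list in the non-depleted group. Sst made up most of the delta-cell sum, with 532 and 658 CPM in the insulin-depleted replicates, against 527 and 665 CPM in the non-depleted ones. The part of these cell types in the chemokine differences was not tested.

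**Figure D5:**
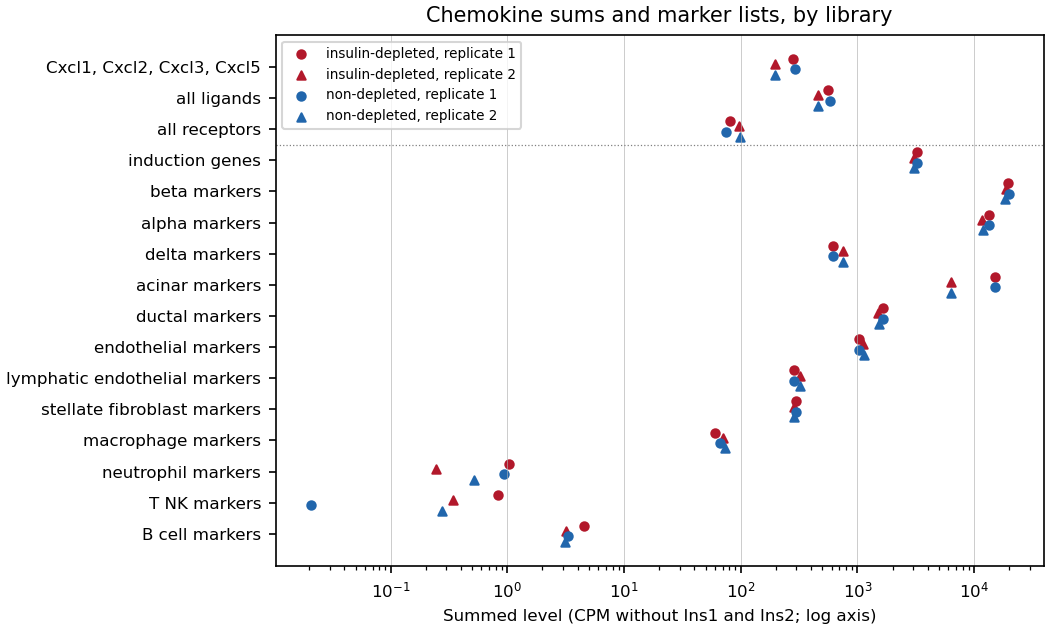
Summed levels (CPM without Ins1 and Ins2, log axis) of chemokine genes, above the dotted line, and of upstream regulators ("induction genes") and cell-type marker lists, below it, in each library; red is insulin-depleted and blue non-depleted, circles are replicate 1 and triangles replicate 2. The largest gap between replicates among the abundant lists is that of the acinar markers, at about 15162 against 6315 CPM in the insulin-depleted group, and neutrophil and T- and NK-cell markers stay near or below 1 CPM.

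Genes that regulate, trim and transmit chemokine signals showed no called change either. Of 28 genes of cytokine, NF-kB and STAT signalling upstream of chemokine transcription, inhibitors such as Nfkbia included, all were tested and 0 were called higher or lower, with a median log2 fold change of -0.02. The receptor gene Il1r1 led them by CPM, with 1036 and 1110 CPM in the insulin-depleted replicates, against 1034 and 1100 CPM in the non-depleted ones, followed by Stat3 with 628 and 614 CPM against 621 and 619 CPM. The widest values were those of Il1a (-0.25) and of Rel (0.10). Il6, a cytokine that NF-kB induces, had 141 and 83.1 CPM in the insulin-depleted replicates, against 133 and 80.7 CPM in the non-depleted ones, and the NF-kB feedback inhibitor Tnfaip3 had 55.1 and 35.9 CPM against 58.4 and 35.7 CPM in the same order. Both were thus higher in the libraries numbered 1, as Cxcl1 was. These 2 genes were chosen after their values were seen, and their ratios between replicates were among the widest of the 28. Over the 28 genes the median log2 ratio of replicate 1 over replicate 2 was 0.16 in each group. Genes such as Il1r1 and Rela were lower in the libraries numbered 1. A link between these 28 genes and the chemokine differences was not tested.

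Of 10 proteases known to trim or shed chemokines, 9 were tested and 0 called, with a median of -0.03. Adam10, which sheds Cx3cl1 and Cxcl16, had 224 and 208 CPM in the insulin-depleted replicates, against 236 and 203 CPM in the non-depleted ones, and Mmp14, a membrane-type metalloprotease, 63.0 and 68.0 CPM against 64.5 and 68.1 CPM. The extremes were Mmp7 (-0.52) and Anpep (0.03). Of 20 genes of receptor signalling, 19 were tested and 0 called, with a median of 0.01, led by the G-protein gene Gnai2 with 609 and 773 CPM in the insulin-depleted replicates, against 598 and 781 CPM in the non-depleted ones, and by Cdc42. Pik3cg had the lowest value (-0.11) and Rac2, a leukocyte GTPase, the highest (0.32). Of 12 relatives outside the symbol pattern, 9 were tested and 0 called, with a median of 0.05. Mif, a cytokine that binds Cxcr4 and Cd74, had 100 and 98.0 CPM in the insulin-depleted replicates, against 101 and 102 CPM in the non-depleted ones. Its receptor Cd74 had 19.2 and 27.9 CPM against 18.2 and 27.8 CPM in the same order. The extremes were Cmklr1 (-0.41) and Ppbp (0.45), a platelet chemokine gene near 1 CPM. Cx3cr1, the receptor of Cx3cl1, had 12 counts over the 4 libraries.

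Depth limited what could be seen of the rare members. At least 3 counts were reached by 31 and 34 chemokine genes in insulin-depleted replicates 1 and 2, against 37 and 36 in non-depleted replicates 1 and 2, and 29 genes reached it in all 4. With each library thinned to 19316173 counts in all, insulin included, the numbers were 31 and 30.3 in the insulin-depleted replicates, against 33.4 and 29.9 in the non-depleted ones, and the groups overlapped. Among rare ligands, Ccl20, which attracts Ccr6-bearing lymphocytes and dendritic cells, had 12 and 5 counts in the insulin-depleted replicates, against 12 and 4 in the non-depleted ones. Cxcl13, the B-cell attractant, had 4 and 2 counts in each group. Both lie near the limit of 3 counts, and no difference between groups was detectable there.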

How the data were processed

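The deposited table gives gene counts as whole numbers. Non-depleted values are filed under expected counts for a formal reason only, since their deposited headers contain "size"; they too are whole, and rounding changed nothing. Per the submitters' processing notes, cutadapt 4.8 and STAR 2.7.11b and the builds GRCm38 and mm10 were used, without roles. Which program counted, with what strand setting and how it treated reads with several places is not given in the sources used here. Low counts were mostly even (80.01 to 84.01% of counts of 2 to 9), so counting intervals, with reads that carry no molecular identifiers, may be too narrow. All 55536 identifiers and symbols matched GENCODE M21, which gave coordinates and exon lengths (union of exons).

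Levels are CPM of totals without Ins1 and Ins2. Counts were tested with edgeR 4.0.16 (R 4.3.3; filterByExpr, TMM, glmQLFit robust, glmQLFTest on group alone, Benjamini-Hochberg over all genes, threshold 0.05), and checked on simulated data. DESeq2 1.42.0 and limma 3.58.1 were alternatives. The exact two-sided permutation p of the insulin share was 0.333, the smallest for 2 against 2 libraries. Chemokine genes at a mean of 1 CPM or more are given in every library, and of each other list the 2 most abundant and the extremes. Outside this rule, Il6 and Tnfaip3 were chosen after their values were seen. Single genes such as Rela, Cx3cr1 and some cell-type markers are also named outside it. The members and lists were chosen with earlier results of these data known. 1 chemokine gene is included in the counts and sums but is not reported here by name.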

Additional observations from a re-analysis of the deposited data

How the results depend on the processing

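Over DESeq2 size factors, limma-voom, library totals without Ins1 and Ins2 in place of TMM, no filter on low counts, counts divided by 2, the replicate number as a block and leaving out each library in turn, the number of chemokine genes called stayed at 0, as did that of the 4 lists of upstream regulators, proteases, signalling genes and relatives. The 27 chemokine genes at 1 CPM or more were uncalled in all 270 of these values, with a smallest adjusted p of 0.999; the sign of their log2 fold change differed from that given in 46. Leaving out 1 library moved single values to between -0.89 and 1.17, and 6 values moved by more than the spread between replicates. The labels share replicate numbers but do not say that a number marks an animal: deviations of same-numbered libraries correlated at 0.73 over 14799 genes and 0.74 over the 27, whose same-numbered libraries differed by a median of 0.11 and 0.07 on the log2 scale, and with the replicate block 9 genes were called in all, in place of 2, with 0 chemokine genes. The insulin-depleted minus non-depleted insulin share was -3.82 percentage points, and -3.91 to -3.74 without 1 library. The leading 5 ligands and the leading 5 receptors per kilobase were the same with the longest transcript as length and in each library numbered 2, and 4 of each 5 stayed in each library numbered 1. Lower ranks moved with the longest transcript as length, among them Ccl25 from 19 to 14, Ccl7 from 9 to 10 and Ccl11 from 10 to 11. Depth limits rare members most in insulin-depleted replicate 1.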
